A study of Mus musculus with 4 samples.

Results

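The genes for Il10, Il19, Il20 and Il24 lie side by side on mouse chromosome 1, and the chromatin around them was examined in 4 lists of open regions. The stretch ran from 50 kb beyond Il24 to 50 kb beyond Il10 in the RefSeq records, chr1:130832074-131074970 on GRCm38 (mm10), and spanned 243 kb. Peaks of the 4 lists that shared at least 1 base were merged into 93679 regions, and 32 of them lay in this stretch. The assay was ATAC-seq, in which a transposase inserts sequencing adapters where DNA is free of nucleosomes. Naive CD4+ T cells (CD62Lhigh CD44low CD25-) sorted from the spleens of male wild-type C57BL/6 mice, 7 weeks old by the labels, were cultured for 48 h on plate-bound anti-CD3 (5 µg/ml) with soluble anti-CD28 (1 µg/ml), IL-2 (10 ng/ml) and TGF-β1 (5 ng/ml), the conditions that drive induced regulatory T cells (iTreg). Cultures without added IL-4 (iTreg+PBS) gave 2 libraries and cultures with 15 ng/ml of mouse IL-4 (iTreg+IL-4) gave 2. The study describes the libraries as pooled samples, so an SD over 2 libraries is not a spread between single mice.

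IL-10 is the cytokine through which regulatory and helper T cells restrain inflammation, and many immune cells make it under the control of several distant elements. IL-19, IL-20 and IL-24 belong to the same family but act mainly on epithelial and skin cells, through receptors in which IL-20RB is paired with IL-20RA or, for IL-20 and IL-24, with IL-22RA1, and signal through STAT3. IL-4, the cytokine added here, signals through STAT6 and directs T cells towards the Th2 fate, in which Il10 is one of the genes expressed. Il10 is read on the forward strand from chr1:131019845-131024970, while Il19 (chr1:130932656-130945457), Il20 (chr1:130906985-130911296) and Il24 (chr1:130882074-130887411) are read on the reverse strand and point away from it. The stretch also holds Fcmr, the gene of the receptor for IgM, part of Pigr, the gene of the receptor that carries IgA and IgM across epithelia, and the lncRNA gene Gm41952. On the Il10 side it holds part of Mapkapk2, the gene of a kinase downstream of p38, and the pseudogene Gm25549.

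Each region is named here by the distance of its centre from the Il10 start site, with negative values on the side of Il19, Il20 and Il24. The rank of a peak is the percent of peaks of its own list with a higher −log10 q-value, so that small values mark strong peaks. The sequences that carry the description are the central 300 bases of 6 regions, read from the GRCm38 forward strand. Those at -25.9, -9.2, 3.0 and 29.6 kb were among the 5 highest regions of the stretch by their median rank over the 4 libraries, the one at -133.2 kb was the region at the start of Il24, and the one at 40.7 kb was 1 of the 2 whose ranks did not overlap between the conditions. Capitals mark matches, on either strand, to any of the motifs spelled out later.
-133.2 kb region: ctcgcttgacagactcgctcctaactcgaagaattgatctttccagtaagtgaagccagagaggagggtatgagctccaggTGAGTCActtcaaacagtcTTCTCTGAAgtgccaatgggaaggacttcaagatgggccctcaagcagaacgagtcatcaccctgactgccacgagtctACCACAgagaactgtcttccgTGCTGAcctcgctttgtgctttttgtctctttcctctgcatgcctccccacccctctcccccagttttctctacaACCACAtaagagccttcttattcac
-25.9 kb region: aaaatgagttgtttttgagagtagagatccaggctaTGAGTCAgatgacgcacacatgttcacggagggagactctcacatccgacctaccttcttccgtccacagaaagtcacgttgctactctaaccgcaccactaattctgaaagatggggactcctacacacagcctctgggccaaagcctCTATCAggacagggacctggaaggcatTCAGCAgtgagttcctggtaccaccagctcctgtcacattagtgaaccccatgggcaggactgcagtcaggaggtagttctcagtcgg
-9.2 kb region: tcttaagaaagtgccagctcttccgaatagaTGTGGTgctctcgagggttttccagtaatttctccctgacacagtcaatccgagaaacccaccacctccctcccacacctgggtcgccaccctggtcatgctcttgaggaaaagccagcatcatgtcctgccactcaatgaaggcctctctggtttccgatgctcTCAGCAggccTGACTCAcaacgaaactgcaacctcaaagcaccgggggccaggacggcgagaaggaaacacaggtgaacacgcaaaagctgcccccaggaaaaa
3.0 kb region: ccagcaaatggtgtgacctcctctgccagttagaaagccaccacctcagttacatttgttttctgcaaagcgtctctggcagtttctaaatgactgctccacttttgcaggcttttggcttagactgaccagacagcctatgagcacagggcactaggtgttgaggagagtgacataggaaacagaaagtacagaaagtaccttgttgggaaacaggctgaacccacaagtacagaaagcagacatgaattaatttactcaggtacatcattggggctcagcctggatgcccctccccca
29.6 kb region: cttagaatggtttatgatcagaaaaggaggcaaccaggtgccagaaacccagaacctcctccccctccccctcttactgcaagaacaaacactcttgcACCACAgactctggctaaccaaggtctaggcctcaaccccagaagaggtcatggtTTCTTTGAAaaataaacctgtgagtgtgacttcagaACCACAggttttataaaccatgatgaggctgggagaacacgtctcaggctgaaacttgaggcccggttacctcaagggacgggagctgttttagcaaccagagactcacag
40.7 kb region: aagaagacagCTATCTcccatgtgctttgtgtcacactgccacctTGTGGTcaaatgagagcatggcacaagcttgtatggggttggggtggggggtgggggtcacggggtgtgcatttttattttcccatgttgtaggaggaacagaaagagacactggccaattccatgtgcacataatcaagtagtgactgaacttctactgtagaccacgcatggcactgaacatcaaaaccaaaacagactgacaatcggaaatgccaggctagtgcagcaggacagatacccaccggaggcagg

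A TGAGTCA (AP-1 type) near the left end of the -25.9 kb sequence and a TGACTCA (AP-1 type) beside a TCAGCA (Maf type) in the -9.2 kb sequence are 2 of these matches. The 3.0 kb sequence held none of the motifs. The -133.2 kb sequence occupies chr1:130886539-130886838, the -25.9 kb sequence chr1:130993824-130994123 and the -9.2 kb sequence chr1:131010498-131010797. The 3.0 kb sequence occupies chr1:131022651-131022950, the 29.6 kb sequence chr1:131049299-131049598 and the 40.7 kb sequence chr1:131060437-131060736.

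The list of iTreg+PBS replicate 1 held 77064 peaks and that of replicate 2 held 56645, and with IL-4 the numbers were 78670 and 67743. All values for the 4 libraries are given in this order from here on. iTreg+PBS replicate 2 thus stood apart with the shortest list. The lists hold no reads, so the sequencing depth is not known, and a place without a peak is one where no enrichment was called at the depth of that library. With 2 libraries against 2, the smallest p that an exact two-sided permutation test can give is 0.333. Cd4, Cd3e, Cd28, Cd5 and Thy1, which mark CD4+ T cells, had a peak within 1 kb of a start site in all 4 libraries. Of the 5 markers of myeloid cells and NK cells, 4 had none in any library (Lyz2, Csf1r, Ncr1 and Klrb1c), while Itgam had one in 3 libraries. Of the B cell genes, Cd79a had none in any library and Ms4a1 had one in 3. Among the CD8+ T cell genes, Cd8b1 had a start-site peak in all 4 libraries and Cd8a in the 2 replicate 1 libraries.

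The cluster was open at many places in both conditions, but the openings were unevenly spread. Peaks covered 6.23%, 4.36%, 6.15% and 4.87% of the stretch, against 1.49%, 1.07%, 1.54% and 1.32% of the assembled chromosomes in the same libraries. Most of them lay around Il10, upstream of it and on its far side, and a smaller group lay around Il24 and Fcmr. Between these groups no region was called in all 4 libraries from the -117.2 kb region to the -40.2 kb region, the part that holds Il20, Il19 and Gm41952. The longest run without a peak measured 48.7, 76.8, 74.9 and 76.6 kb, and in each library it contained the whole of Il19. The plot of peaks along the cluster shows the 2 groups and the gap between them.

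**Figure D1:**
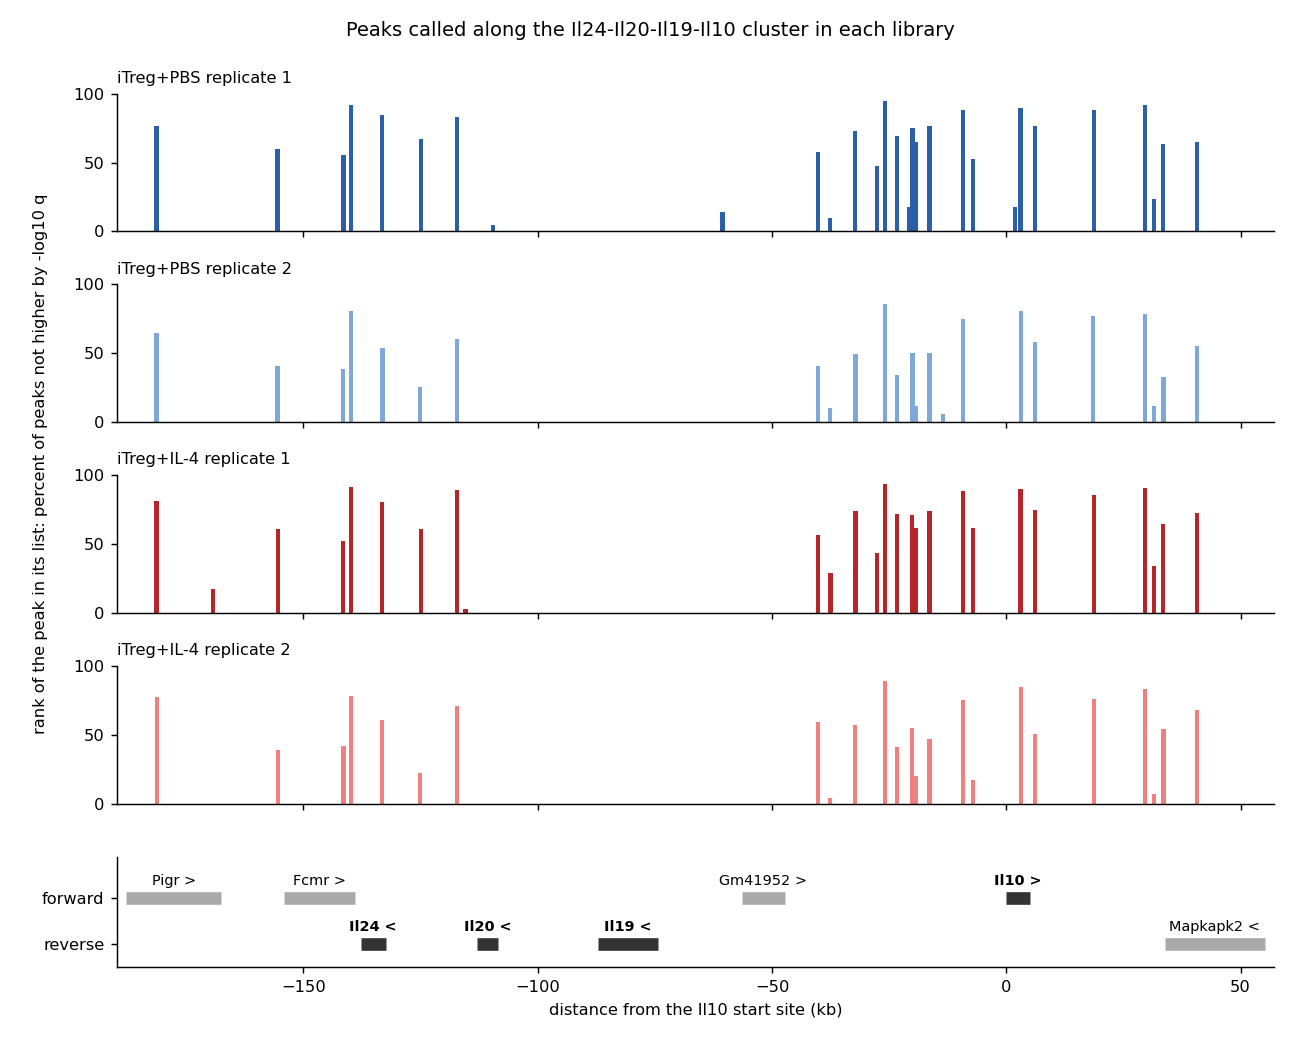
Peaks in each of the 4 libraries (rows) by distance from the Il10 start site in kb, with bar height giving the percent of peaks of the same list that were not higher by -log10 q. Narrow peaks are drawn wider than they are so that they show, and genes are drawn at the bottom by strand with the 4 cytokine genes in dark grey. Regions around Il24 and around Il10 recur in all libraries, and Il19 holds no peak in any.

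By gene, Il10 was the member with the most open chromatin inside it. Peaks covered 22.9%, 15.0%, 22.0% and 15.5% of the Il10 gene and 9.10%, 6.84%, 10.4% and 7.68% of the Il24 gene. The Il20 gene was covered over 6.52% in iTreg+PBS replicate 1 and held no peak in the other libraries. Il19 and the 21.4 kb between Il20 and Il19 held no peak in any library. The 74.4 kb between Il19 and Il10 held 14 regions, 9 of them called in all 4 libraries, and 10 of the 32 regions lay within 30 kb upstream of the Il10 start. The 50 kb beyond the Il10 gene held 6 regions, each of them called in all 4 libraries.

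The contrast between Il10 and its neighbours also held with 50 kb added on either side of each gene. With that margin, Il10 had more bases inside peaks than 93.7%, 91.4%, 92.7% and 88% of 21774 protein-coding genes. Il24 had more than 51.6%, 51.1%, 53.1% and 50.6% of them, Il19 more than 58.0%, 50.3%, 56.8% and 46.5%, and Il20 more than 48.7%, 45.2%, 45.4% and 45.1%. Il24, Il20 and Il19 thus sat near the middle of all genes in every library, and their margins overlap, so these values are not independent of each other. The genes whose bases inside peaks were closest to those of Il10 over the 4 libraries, by Euclidean distance, were D17H6S56E-5 (distance 420.4 bases), Mcoln2 (421.3 bases), which encodes an endolysosomal cation channel, and Mfsd2a (454.1 bases), which encodes a lysolipid transporter.

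Apart from a peak at Il20 in 1 library, the start sites of the 4 cytokine genes differed from each other in the same way in both conditions. The Il10 start had no peak within 1 kb in any library, and the nearest peak began 1742, 2743, 2392 and 2675 bases downstream, inside the gene. The Il19 start had none within 1 kb either, at its curated position (130940115) or at the 3 predicted ones. Il20 had one in iTreg+PBS replicate 1 alone, which began 895 bases downstream, and 95.1% of that list's peaks had a higher −log10 q. Il24 was the only member with a start-site peak in all 4 libraries, and it began 510, 511, 446 and 529 bases downstream of the start, within an intron. Absence of a peak at a start site was not rare, since 34.6% of 21000 protein-coding genes with a curated start had none within 1 kb in any library, while 59.3% had one in all 4. RefSeq promoter sequences were listed for Il20 and Il19, but not for Il10 and Il24, and none is shown.

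Across the stretch, 31 of the 32 regions had their centre more than 1 kb from any curated start site (96.9%), against 84.0% of all regions on the assembled chromosomes. Among regions called in all 4 libraries the share was 95.7% (22 of 23) in the stretch and 73.6% over all regions. The exception was the -133.2 kb region, 723 bases downstream of the Il24 start.

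IL-4 was added to ask what it changes in the chromatin of cells under iTreg conditions, and over the cluster the amount of open chromatin did not differ beyond the spread of the replicates. The stretch held 29, 24, 27 and 24 peaks, a mean of 26.5 ± 3.54 against 25.5 ± 2.12 (SD, n = 2 each, exact two-sided permutation test, p = 1.00). Peaks covered 15127, 10587, 14930 and 11840 bases, or 12857 ± 3210 against 13385 ± 2185 (SD, n = 2 each, exact permutation p = 1.00). The values of the conditions overlapped in both measures. In each condition replicate 1 exceeded replicate 2, by more than the condition means differed. Single libraries set the sign, since the difference in bases was 2798 without iTreg+PBS replicate 1, -1742 without iTreg+PBS replicate 2 and -1017 without iTreg+IL-4 replicate 1. The difference in peaks ranged from -3.50 to 1.5 with 1 library left out.

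Divided by gene, the picture was the same near Il10. With 50 kb on either side, Il10 had 10678, 7579, 10434 and 8131 bases inside peaks, which gave 9128 ± 2191 without and 9282 ± 1628 with IL-4 (SD, n = 2 each, exact permutation p = 1.00). Around Il24 the values were 4200, 3008, 4496 and 3709 bases, or 3604 ± 843 and 4102 ± 556 (SD, n = 2 each, exact permutation p = 0.667). The difference of 498 bases around Il24 did not reach the pooled SD (714 bases). Without iTreg+PBS replicate 2 the differences turned to -1396 bases around Il10 and -97.5 bases around Il24, and without iTreg+IL-4 replicate 1 that around Il10 was -998 bases.

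**Figure D2:**
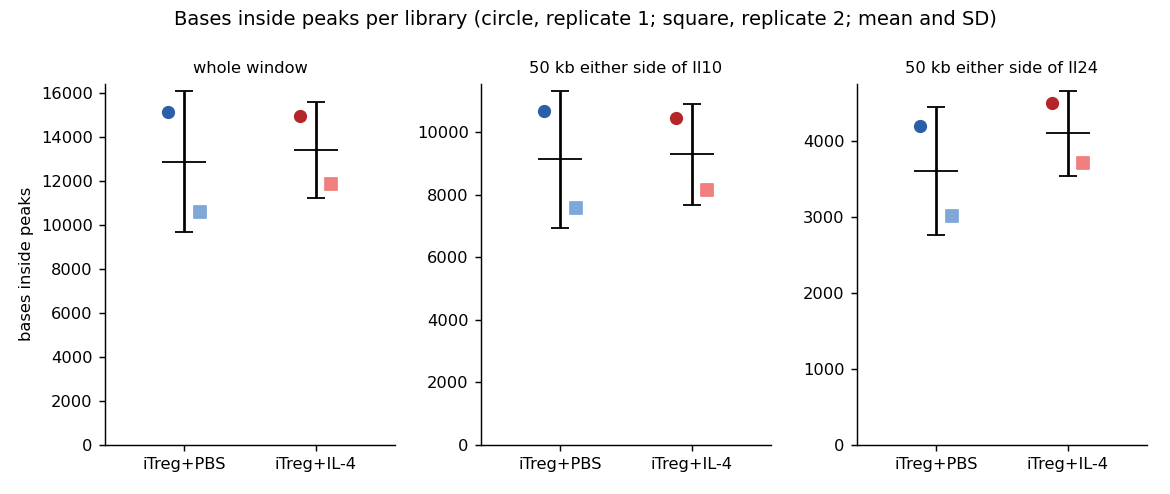
Bases inside peaks per library in the whole stretch, within 50 kb of Il10 and within 50 kb of Il24, on axes that start at 0. Points are libraries (circles, replicate 1, squares, replicate 2), and horizontal lines with bars are the mean and SD of 2 libraries. In each panel the points of iTreg+PBS and iTreg+IL-4 overlap.

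Presence of a region did not separate the conditions either. Of the 32 regions, 23 were called in all 4 libraries (71.9%, against 51.0% of all regions), 1 in 3, 1 in 2 and 7 in a single library (21.9%, against 21.6%). The number of regions called in each iTreg+IL-4 list but in no iTreg+PBS list was 0, a pattern found in 2.60% of all 93679 regions. The number with the opposite pattern was also 0, against 0.699% of all regions. At these background shares a count of 0 among 32 regions is near the background and says nothing particular about the cluster.

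The 9 regions that were not called everywhere mostly ranked low by −log10 q, but not all of them by height. Of the 7 in a single library, 4 came from iTreg+PBS replicate 1 (-109.6, -60.6, -20.8 and 1.8 kb), 1 from iTreg+PBS replicate 2 (-13.6 kb) and 2 from iTreg+IL-4 replicate 1 (-169.2 and -115.4 kb). The -27.6 kb region was called in the 2 replicate 1 libraries. The -7.1 kb region was called in all but iTreg+PBS replicate 2. Its ranks were 47.4% in iTreg+PBS replicate 1 and 38.1% and 82.9% in iTreg+IL-4 replicates 1 and 2. Over these 9 regions the ranks by −log10 q ran from 38.1% to 96.7%, and those by height, the percent of the list's peaks that were taller, from 25.4% to 96.4%. By height the -27.6 kb region stood at 25.4% and 25.5% in the libraries that held it, and the -7.1 kb region at 33.5%, 29.1% and 65.7%.

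The strongest opening of the cluster lay far upstream of Il10. The -25.9 kb region (chr1:130993556-130994391, intergenic) was the highest of the stretch by −log10 q in all 4 libraries. Its ranks were 5.72%, 14.1%, 6.41% and 10.5%, its −log10 q values 377, 99.7, 310 and 195, and its heights 548, 140, 488 and 275. The lists do not state the unit of the heights. Heights and q-values are not scaled for depth, so they describe each library alone, and only ranks are set side by side. By rank the conditions overlapped, with a mean of 9.93% without and 8.48% with IL-4 (exact permutation p = 1.00, n = 2 each).

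The next regions in the order were likewise shared by the conditions. The 3.0 kb region (chr1:131022237-131023363), within Il10 over exon 4 and the introns beside it, had ranks of 10.1%, 19.5%, 9.95% and 15.5%. The 29.6 kb region (chr1:131049170-131049726), in the intergenic stretch between Il10 and Mapkapk2, had 8.22%, 21.5%, 9.16% and 16.7%. The -139.8 kb region (chr1:130879543-130880466), in an intron of Fcmr and 7407 bases downstream of the Il24 start, had 8.04%, 19.1%, 8.83% and 21.5%. In all 3 the best iTreg+PBS library and the best iTreg+IL-4 library lay close together and the replicate 2 libraries lay lower.

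The -9.2 kb region (chr1:131010249-131011045) completed the 5 highest by median rank over the libraries, with ranks of 11.8%, 24.9%, 11.3% and 24.9%. In the order within a single library it stood at place 6 in 3 libraries and at place 7 in iTreg+IL-4 replicate 2. A conserved noncoding sequence about this far upstream of Il10 is known as an enhancer in T helper cells that binds NFAT1 and IRF4. The mean rank of the -9.2 kb region was 18.4% without and 18.1% with IL-4, a difference of -0.273 points (exact permutation p = 1.00, n = 2 each). The 18.7 kb region (chr1:131038033-131039086) followed by that median with 11.6%, 23.2%, 14.4% and 24%, and stood at places 5, 5, 7 and 6, ahead of the -9.2 kb region in 3 of the 4 libraries. These 6 regions were among the 7 highest of the stretch in every library of both conditions. The ranks of neighbouring regions in this order overlapped between libraries.

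The rest of the openings upstream of Il10 formed a row of weaker peaks that recurred in both conditions. Those at -40.2, -37.6, -32.3, -23.3, -20.0, -19.2 and -16.4 kb were called in all 4 libraries. The -32.3 kb region had ranks of 27.0%, 50.6%, 26.0% and 42.9%, and the -20.0 kb region 24.8%, 49.6%, 28.6% and 45.1%. The -23.3 kb region had 30.5%, 65.6%, 27.9% and 58.8%, and the -16.4 kb region 23.3%, 49.4%, 25.8% and 53.2%. In these 4 regions both replicate 1 libraries ranked above both replicate 2 libraries, and the conditions overlapped. The -37.6 kb region was the weakest of the row, with ranks of 90.1%, 89.7%, 70.8% and 96.0%. The -19.2 kb region, with a match to the STAT6 type of motif described later, had 35.3%, 88.0%, 38.3% and 80.0%, so its replicates lay far apart in both conditions. At -40.2 kb, the first shared region past the gap, the ranks were 42.2%, 59.1%, 43.0% and 40.9%.

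Past the end of Il10, the 6.1 kb region had ranks of 23.6%, 42.0%, 25.2% and 49.1%, with a mean of 32.8% without and 37.1% with IL-4 (exact permutation p = 0.667, n = 2 each). Around Fcmr, on the far side of Il24, 2 further regions were called in all libraries. The -155.4 kb region, just before the Fcmr start, had ranks of 40.1%, 59.1%, 38.7% and 60.6%. The -141.5 kb region, over exons 6 and 7 of Fcmr, had 44.2%, 61.6%, 47.7% and 58.2%. In both the conditions overlapped and their means differed by less than 1 point.

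At Il24, the start-site region at -133.2 kb (chr1:130886411-130886965) was of middle strength, with ranks of 15.7%, 46.3%, 19.7% and 39.4%. The 2 libraries of each condition lay further apart than the condition means, which were 31.0% without and 29.5% with IL-4 (exact permutation p = 1.00, n = 2 each). Between Il24 and Il20, the -117.2 kb region (chr1:130902328-130902900), 8682 bases downstream of the Il20 start, had ranks of 17.1%, 39.6%, 10.5% and 29.0%. Its mean was 28.3% without and 19.8% with IL-4 (exact permutation p = 0.667, n = 2 each), and the conditions overlapped. The -124.9 kb region, upstream of Il24, had a mean of 53.8% without and 58.3% with IL-4, also with overlap.

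**Figure D3:**
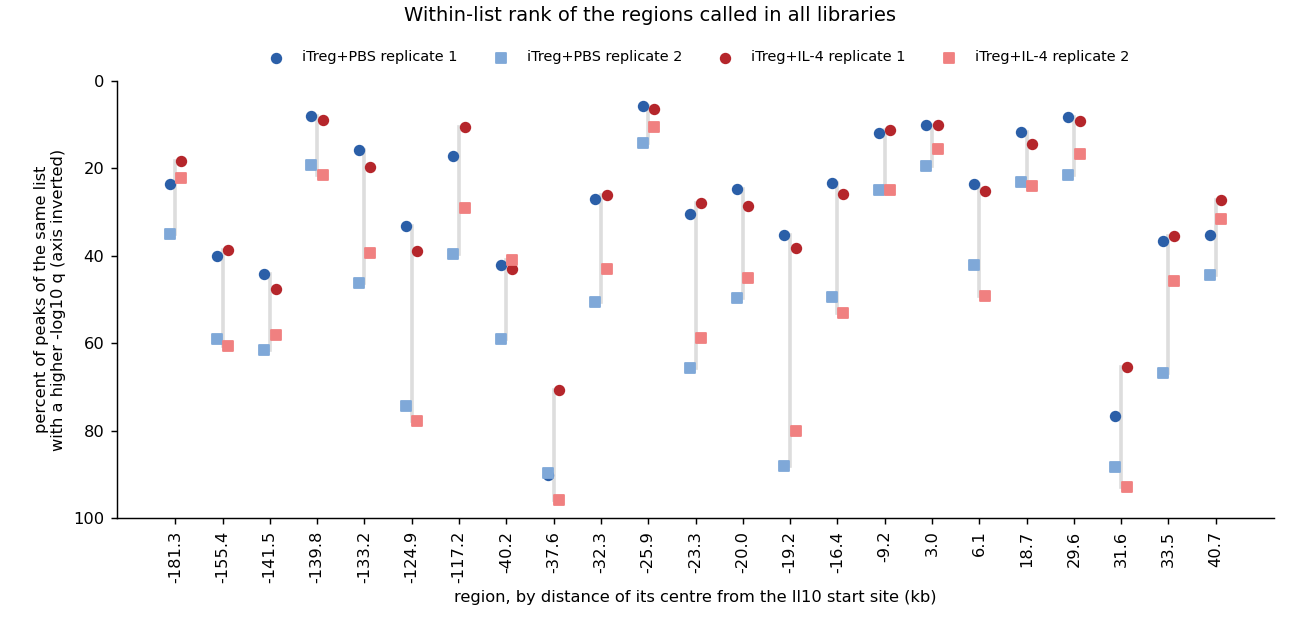
Within-list rank of the 23 regions called in all libraries, ordered by distance from the Il10 start in kb. The axis gives the percent of peaks of the same list with a higher -log10 q and is inverted so that strong peaks are at the top, and grey lines join the lowest and highest library. In most regions the libraries separate by replicate number (circles above squares) rather than by condition (blue and red).

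Of the 23 regions called in all 4 libraries, 2 had a better rank in both iTreg+IL-4 libraries than in both iTreg+PBS libraries (8.70%), and the same held for 19.7% of all 47767 regions called in all libraries. The reverse was seen in 0 of the 23, against 5.18% of all. With ranks taken only among the shared regions, the counts were 2 and 1, and the shares of all regions were 14.3% and 12.7%. Both counts turned on single libraries, since 14 regions ranked higher without iTreg+PBS replicate 1 (70.8% of all regions did) and 11 without iTreg+IL-4 replicate 2 (48.4%), while 11 ranked lower without iTreg+PBS replicate 2 (36%) and 9 without iTreg+IL-4 replicate 1 (17.9%). The 2 regions ranked higher over all 4 libraries lay at the outer ends of the stretch, in genes other than the cytokines. The -181.3 kb region (chr1:130838217-130838816), in an intron of Pigr, had ranks of 23.6%, 34.9%, 18.4% and 22.1%, with a difference of -9.04 points. The 40.7 kb region (chr1:131060214-131060959), in an intron of Mapkapk2, had ranks of 35.3%, 44.5%, 27.3% and 31.6%, with a difference of -10.5 points. For each the exact permutation test gave p = 0.333 (n = 2 each). With 2 libraries against 2, ranks that do not overlap always give this value, so it adds nothing to the choice of these regions.

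By rank within the full lists, the largest difference of the 23 regions belonged to the 33.5 kb region (-11.3 points). Its ranks were 36.7%, 66.9%, 35.4% and 45.8%, and its conditions overlapped. The full lists differ in length, and the order of single regions by difference was not compared in lists of equal length. The differences of the 23 regions ran from -11.3 to 4.52 points with a median of -1.94 points, and 16 of them (69.6%) were negative, that is, better ranked with IL-4. Over all 47767 regions the median was -2.05 points and 73.3% were negative, close to the values of the cluster. The direction depends on the ranking, since the lists differ in length, and the difference between the conditions in the median rank of the cluster's regions was 3.17 points in lists of equal length and 2.33 points when ranked among shared regions, both worse with IL-4. A difference beyond 10 points was found in 8.70% of the cluster's regions and in 17.7% of all.

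**Figure D4:**
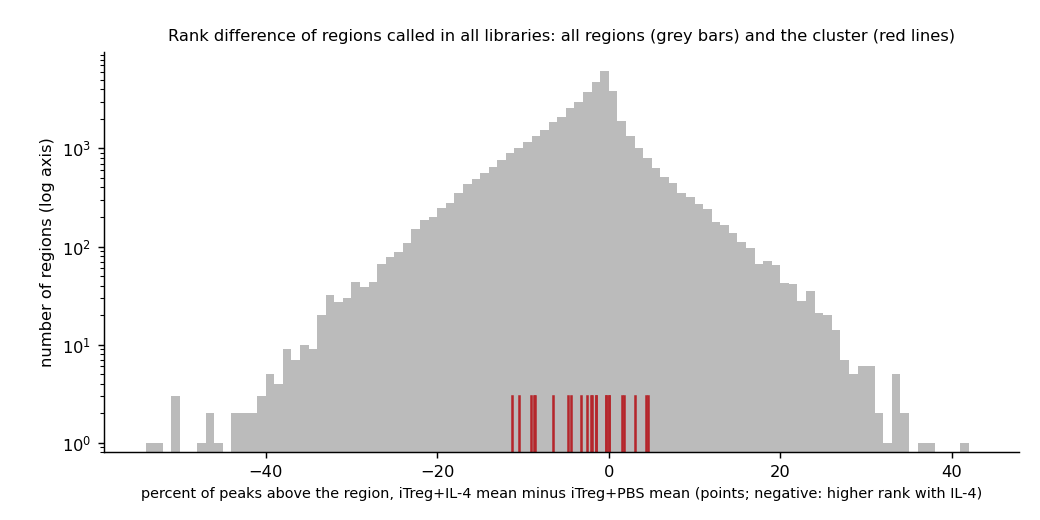
Difference in within-list rank (iTreg+IL-4 mean minus iTreg+PBS mean, in percentage points, where negative values mean a better rank with IL-4) for all 47767 regions called in all libraries, as grey bars with counts on a log axis, and for the 23 regions of the cluster, as red lines. The red lines run from -11.3 to 4.52 points, inside the bulk of all regions.

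Over the 23 regions, the median rank per library was 24.8%, 49.4%, 26.0% and 42.9%, or 37.1% ± 17.4 without and 34.5% ± 12 with IL-4 (SD, n = 2 each, exact permutation p = 1.00). The difference of -2.65 points was well inside the pooled SD of 14.9 points. It changed sign, to 9.44 points, without iTreg+PBS replicate 2, and to 5.81 points without iTreg+IL-4 replicate 1. Over all regions called in all libraries the medians were 31.3%, 42.5%, 30.7% and 35.5%, so the cluster ranked above that median in the replicate 1 libraries and below it in the replicate 2 libraries. Ranked only among the shared regions, the cluster had medians of 39.9%, 57.9%, 42.6% and 59.9%.

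Some regions near Il10 ranked much higher by height than by −log10 q. The -20.8 kb region, called in iTreg+PBS replicate 1, had a height of 104, above which lay 30.2% of that list's peaks, while 82.6% had a higher −log10 q. The 1.8 kb region in an Il10 intron, in the same library, stood at 32.7% by height and at 82.5% by −log10 q. The 31.6 kb region, called in all libraries, stood at 40.4%, 58.1%, 36.8% and 59.4% by height and at 76.6%, 88.4%, 65.5% and 93.0% by −log10 q. Over the 23 regions the median of the rank by −log10 q minus that by height was 1.02, 0.694, 1.15 and 0.973 points, against -1.70, -1.35, -1.68 and -1.46 points over all regions called in all libraries. The parameters behind the q-values are not in the lists, and what sets these ranks apart was not tested.

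Short sequence motifs, which the choice of regions did not use, were counted in the cluster and over all regions. TGANTCA (the AP-1 type, bound by Jun, Batf and related factors) was searched with any middle base. It was found within the central 300 bases in 11 of the 32 regions, 34.4% (95% Wilson interval 20.4% to 51.7%). Of 93503 regions on the assembled chromosomes, 16.8% held it. In the -139.8, -23.3 and -20.8 kb regions the match was TGATTCA or TGAATCA rather than TGAGTCA or TGACTCA. The GATA type, bound by GATA3 in T cells and searched as AGATAA or TGATAA or AGATAG or TGATAG, was found in 16, 50.0% (33.6% to 66.4%), against 32.9%. Regions are not replicates, so no test was made. The background was not matched for distance from a start site. Centres more than 1 kb from any curated start made up 96.9% of the cluster's regions and 84.0% of all. Among the regions called in all libraries AP-1 was found in 34.8% (18.8% to 55.1%) against 14.5%, and GATA in 43.5% (25.6% to 63.2%) against 29.8%, an interval that holds the background share. The median GC content was 49.2% in the stretch and 49.3% over all regions.

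The other motifs were about as frequent in the central 300 bases of the cluster's regions as in those of all regions. TTCNNNNGAA, the spacing that STAT6 prefers, was found in 3 regions, 9.38% (3.24% to 24.2%), against 8.35% of all. They were the -115.4, -19.2 and 31.6 kb regions, none of which was among the 5 highest by median rank. TTCNNNGAA, the spacing of STAT3 and STAT5, was found in 3 as well, against 11.7% of all. TGCTGA, the core of the Maf element, was found in 9 regions (28.1%, against 23.0%), and TGTGGT, the Runx motif, in 10 (31.2%, against 28.6%). Over whole regions the gaps differed, with AP-1 in 50.0% against 23.4% and GATA in 59.4% (42.3% to 74.5%) against 46.0%. The STAT6 type was found in 21.9% (11% to 38.8%) against 13.6%, and Runx in 50.0% against 39.7%. Among whole regions called in all libraries, AP-1 was found in 56.5% against 26.1% and GATA in 60.9% against 55.7%. There the STAT6 type was found in 26.1% against 17.3%, Runx in 56.5% against 47.2% and the Maf core in 39.1% against 43.5%. All motifs were searched on both strands, a match is a description of letters and not of a bound site, and AP-1 and Maf matches can lie next to each other as at -9.2 kb.

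Read region by region, the strongest openings did not share a single set of motifs. The -25.9 kb region held AP-1, GATA and Maf matches, and the -9.2 kb region AP-1, Maf and Runx matches. The -139.8 kb region held 2 matches of the STAT3 and STAT5 type, 1 AP-1 match and 1 Runx match. The 29.6 kb region held 1 match of the STAT3 and STAT5 type and 2 Runx matches. The -133.2 kb region at Il24 held an AP-1 match, a match of the STAT3 and STAT5 type, a Maf match and 2 Runx matches. The 3.0 and 18.7 kb regions held none of the 6 kinds of motif in their central 300 bases. The 40.7 kb region, whose ranks did not overlap between conditions, held 1 GATA and 1 Runx match, and the -181.3 kb region 1 AP-1 and 1 GATA match.

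**Figure D5:**
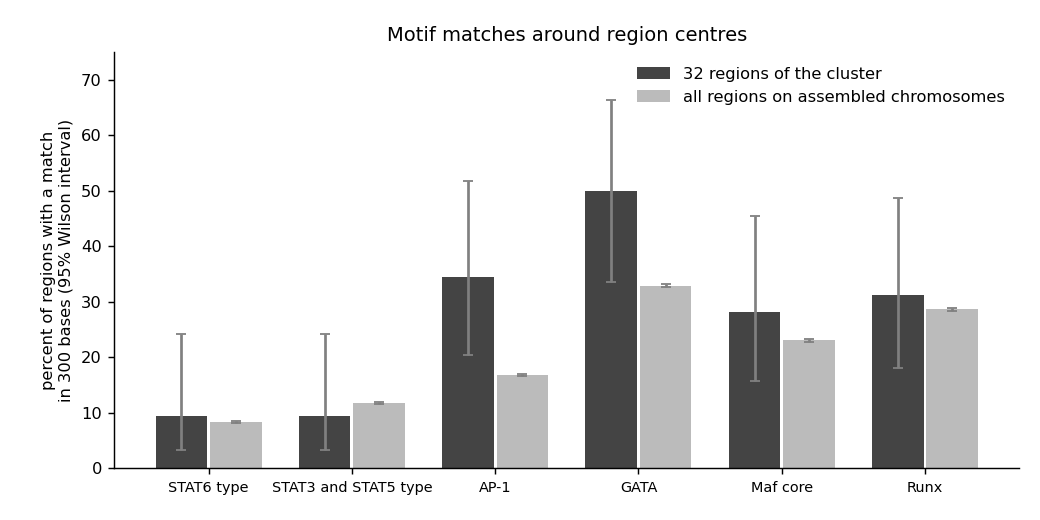
Percent of regions with at least 1 match in the central 300 bases for 6 kinds of motif, in the 32 regions of the cluster (dark bars) and in all regions on the assembled chromosomes (grey bars), with 95% Wilson intervals that cover counting error only. AP-1 (34.4% against 16.8%) and GATA (50.0% against 32.9%) show the widest gaps, against a background not matched for distance from start sites.

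Most genes through which the IL-10 family signals and is controlled were open at their start sites in both conditions. Of 32 listed genes, 31 had a curated start site and 24 of these had a peak within 1 kb in all 4 libraries (25, 24, 25 and 25 per library). Over all 21000 protein-coding genes with a curated start, 59.3% had one in all 4 libraries. The number of listed genes with one in both libraries of 1 condition only was 0 in either direction, near the 0.352% of all genes that had it with IL-4 only and the 0.0905% that had it without IL-4 only. All 14 factors known to act on Il10 in T cells, among them Maf, Prdm1, Batf, Irf4 and Gata3, had one in every library, as did all 6 signalling genes, such as Jak1, Tyk2 and Stat3. The start-site peak of Stat3, the main transducer of IL-10, was among the strongest of each list, with ranks of 0.465%, 0.749%, 0.479% and 0.605%.

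The ranks of some of these start-site peaks did not overlap between the conditions. For Stat6 and Tbx21, for example, both iTreg+IL-4 libraries ranked higher, a pattern found in 20.1% of the 12443 genes with a start-site peak in all libraries. For Bcl3, Il10rb, Jun and Nfil3 both ranked lower, found in 5.73% of those genes. The widest shift belonged to Bcl3, which encodes an atypical IκB protein, with ranks of 7.58% and 8.45% without IL-4 and 23.2% and 22.7% with it. Tbx21, which encodes the Th1 factor T-bet, had ranks of 40.4% and 41.4% without and 35.5% and 34.3% with IL-4. Nfil3, which encodes a factor that acts on Il10 in helper T cells, had 20.1% and 24.4% without and 32% and 26.6% with IL-4. The lists differ in length, and the start-site ranks were not compared in lists of equal length. Whether the conditions stay apart there was not tested.

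Ligands and receptors of the family were split. The receptor genes Il10ra, Il10rb, Il20ra and Ifnlr1 had a start-site peak in all 4 libraries, with ranks of 23.0%, 36.6%, 19.4% and 29.5% for Il10ra, which encodes the chain that binds IL-10. Il20rb, Il22ra1 and Il22ra2 had none in any library. Among the family's cytokine genes elsewhere in the genome, Il22, Iltifb and Ifnl3 had none in any library, and Ifnl2 had one in all but iTreg+PBS replicate 2. Il26 had no curated start site in the annotation.

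The borders of the stretch were set by distance alone. The outermost members lay 6143 bases inside the edge on the Il24 side and 14011 bases inside the edge on the Il10 side. The nearest region outside on the Il24 side (chr1:130820683-130820913), 11161 bases beyond the edge, was called in the 2 replicate 1 libraries, with ranks of 62.2% and 62.5%. The nearest one outside on the Il10 side (chr1:131079428-131081203), 4458 bases beyond the edge, was called in all 4 with ranks of 5.70%, 10.1%, 6.76% and 8.53%.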

How the data were processed

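ATAC-seq libraries of 2 iTreg+PBS and 2 iTreg+IL-4 samples were compared, with groups and replicate numbers from the sample labels. The authors sequenced them on the BGISEQ-500 platform, mapped read pairs to mm10 and called peaks in each library without pooling. The submitters' processing notes name Bowtie2 2.2.5, MACS2 2.1.2 and bedtools 2.16.2. An offset for transposase insertion and the removal of duplicate or mitochondrial reads are not given in the sources used here, and such steps could move peak borders, heights and q-values. The deposited lists have no column names. The fourth column was read as the −log10 q-value of the authors, since its lowest values lie just above 1.30 (q = 0.05), and the fifth as the signal the authors' caller gives for the height of a peak, not scaled for depth. A peak's rank is the percent of its own list's peaks with a higher −log10 q. Positions were read as counting from 0 and are given counting from 1.

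The members, lists and motifs were chosen with earlier results of these data known. Gene records, exons and start sites came from RefSeq on GRCm38, and sequences from its genome, with Python 3.11.15, pandas 2.3.3, numpy 2.4.6, scipy 1.17.1, pysam 0.24.0 and samtools 1.23.1. One value per library was compared by the exact two-sided permutation test. Its p-value is the share of ways to label these libraries that give a difference at least as large. It speaks of these libraries only. Counts of regions were set beside the share over all regions. Regions were named where they lay within 1 kb of a member's start, had ranks that did not overlap or were among the 5 highest by median rank over the libraries, and others by their place in the cluster. The -117.2, -124.9, 18.7, 33.5, -20.8, 1.8 and 31.6 kb regions were added after their values were seen. The counting was tested on simulated lists. Intervals cover counting error only. Alternatives kept the upper 50% of each list or its 56645 highest peaks, required a reciprocal overlap of 50%, used flanks of 20 or 100 kb, other motif windows and start-site widths, another ranking, a replicate block, or left out each library. Predicted Il19 starts and the comparison of start-site ranks of listed genes were added after seeing the data. Some listed genes are not reported here.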

Additional observations from a re-analysis of the deposited data

How the results depend on the processing

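Of the 117 values recomputed under alternatives, 85 kept their direction, or for counts stayed within 1.5 times the reported value and for shares within its 95% interval, 19 moved and 13 changed sign. A direction that was kept does not mean a like size, since without iTreg+PBS replicate 1 the base difference in the stretch was 2798 in place of 528 and the median rank difference -15.0 in place of -2.65 points. The difference in peaks per library, -1 as reported, was 1.00 in the upper 50% of each list, 0 in lists of equal length and 1.5 with flanks of 100 kb. The difference in median rank, -2.65 points, was 3.17 points in lists of equal length and 2.33 points when ranked among shared regions. The count of regions ranked lower with IL-4, 0 as reported, was 1 under each of these last 2 settings, where 12.5% and 12.7% of all regions ranked lower and 14.0% and 14.3% higher, against 5.18% and 19.7% as reported. The count of regions ranked higher, 2, was 0 with flanks of 20 kb, which leave out both. Within 2 kb, 1 library had a peak at the Il10 start. Within 0.5 kb, 0 libraries had one at the Il20 start and 1 at the Il24 start, and in the upper 50% of each list 0 had one at the Il20 start.

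With 1 library left out, the differences ranged from -3.50 to 1.5 peaks, from -1742 to 2798 bases in the stretch, from -1396 to 1704 bases around Il10, from -97.5 to 1094 bases around Il24 and from -15.0 to 9.44 points of median rank. The peak difference was 1.5 without iTreg+PBS replicate 1 and 0.5 without iTreg+IL-4 replicate 2. The base difference in the stretch was -1742 without iTreg+PBS replicate 2 and -1017 without iTreg+IL-4 replicate 1, and around Il10 -1396 and -998. Without iTreg+PBS replicate 2 it was -97.5 around Il24, and the median rank difference was 9.44, and 5.81 without iTreg+IL-4 replicate 1. Regions called only with IL-4 ranged from 0 to 2 (2 without iTreg+IL-4 replicate 2, against 11.1% of all regions, and 1 without iTreg+PBS replicate 1, against 13.6%) and only without it from 0 to 4 (4 without iTreg+PBS replicate 2, against 8.21%, and 1 without iTreg+PBS replicate 1, against 3.25%). Regions ranked higher with IL-4 ranged from 2 to 14 (14 without iTreg+PBS replicate 1, where 70.8% of all regions were, and 11 without iTreg+IL-4 replicate 2, against 48.4%), and lower from 0 to 11 (11 without iTreg+PBS replicate 2, against 36%, and 9 without iTreg+IL-4 replicate 1, against 17.9%). The differences in peaks, bases and median rank thus changed sign with a library left out. Regions that do not overlap over all 4 libraries cannot overlap once a library is left out, so the lower ends of these counts say nothing about stability. The cause was not tested.

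The labels give the same replicate numbers to both conditions but no shared mouse or day. Deviations of same-numbered libraries from their condition means correlated with r = 0.452 over 47767 regions and 0.661 over the 23 regions, across regions, which are not independent. With the replicate number as a block, 7 regions ranked higher with IL-4 in both pairs (43.4% of all regions did) and 5 ranked lower (12.3%). The smallest p of 2 pairs is 0.5. The share of the cluster's regions with a Runx match, 31.2% in 300 bases, was 18.8% in 200 bases and 50.0% over whole regions. Over whole regions the STAT6 type was at 21.9% in place of 9.38% and the STAT3 and STAT5 type at 18.8% in place of 9.38%, within the wide intervals of 32 regions. Depth is unknown, which limits every absence of a peak.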
